A study of Mus musculus with 4 samples.

Results

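The small leucine-rich proteoglycans are secreted matrix proteins, and 10 genes of the family and its close relatives are described here: Aspn, Ecm2, Omd, Ogn, Dcn, Lum, Kera, Fmod, Prelp and Bgn. A gene entered by name, through the probe sets whose only symbol in the platform annotation was that gene's. This gave 13 of 23521 probe sets with a single symbol, for 10 of 22180 genes. The genes were picked with earlier results of these arrays known, so their genotype differences are descriptions and carry no test.

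RNA came from mouse mesenchymal stem cells derived from bone marrow. There were 4 groups with 1 Affymetrix array each: Snail1-KO cells given TGF-b1 for 2 h, Snail1-WT cells given TGF-b1 for 2 h, Snail1-KO cells without treatment and Snail1-WT cells without treatment. Snail1, encoded by Snai1, is a zinc finger transcriptional repressor, and TGF-b1 is a cytokine that acts through SMAD proteins. The labels state neither how Snail1 was deleted, nor the age and strain of the mice, nor how many animals or cultures stood behind an array. Since each group was a single array, differences between arrays could not be checked against replicates.

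Proteins of this family carry a curved domain of leucine-rich repeats, and most bind fibrillar collagen and help to set the width and spacing of its fibrils. Many also carry chondroitin, dermatan or keratan sulfate chains, and several of them, among them decorin, biglycan, fibromodulin and asporin, bind TGF-b. The genes sit in the genome as neighbouring groups. In the mouse gene order Ecm2, Aspn, Omd and Ogn follow each other on chromosome 13, Dcn, Lum and Kera on chromosome 10, and Prelp and Fmod on chromosome 1, while Bgn lies on the X chromosome.

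Values are RMA log2 values, so a difference of 1 is 2-fold. A gene was kept when its mean over the 4 arrays was among the highest 60% of genes, and the 13308 kept genes had means from 4.51 upward. Of the 10 proteoglycan genes 7 were kept, and Ecm2, Lum and Kera were not. The error of a difference between 2 arrays was gauged by a noise SD, taken from the disagreement of the TGF-b1 responses of both genotypes among the 500 genes nearest in level. A shift shared by both arrays of a genotype is not part of it. The 4 arrays had medians of 4.58 to 4.63. Snai1 itself measured 5.34 with and 5.09 without TGF-b1 in Snail1-KO cells, against 7.63 and 6.69 in Snail1-WT cells, the direction the labels give.

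The sequences upstream of the 4 chromosome 13 genes are shown because these genes were all higher in Snail1-KO cells, and that of Fmod because it went the other way. Each is the 250 bases before the gene's start in RefSeq's GRCm38.p6 annotation, read 5′ to 3′ on the gene's strand, with every CANNTG in capitals, the E-box to which Snail1 and basic helix-loop-helix proteins can bind.
Aspn, chr13:49544193-49544442, plus strand: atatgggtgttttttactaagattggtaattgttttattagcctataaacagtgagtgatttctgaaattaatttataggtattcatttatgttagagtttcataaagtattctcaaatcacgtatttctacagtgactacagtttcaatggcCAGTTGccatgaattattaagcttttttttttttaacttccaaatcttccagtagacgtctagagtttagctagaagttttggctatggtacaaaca
Ecm2, chr13:49504560-49504809, plus strand: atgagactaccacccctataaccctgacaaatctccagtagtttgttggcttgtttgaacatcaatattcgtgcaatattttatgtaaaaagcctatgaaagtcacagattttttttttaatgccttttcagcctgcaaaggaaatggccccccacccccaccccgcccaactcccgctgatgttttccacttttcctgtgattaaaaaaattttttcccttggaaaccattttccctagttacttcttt
Omd, chr13:49582212-49582461, plus strand: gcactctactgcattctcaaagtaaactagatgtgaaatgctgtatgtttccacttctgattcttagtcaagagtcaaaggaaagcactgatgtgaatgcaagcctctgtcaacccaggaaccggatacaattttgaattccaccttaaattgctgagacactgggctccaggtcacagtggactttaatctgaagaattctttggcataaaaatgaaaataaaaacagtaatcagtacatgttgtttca
Ogn, chr13:49607765-49608014, plus strand: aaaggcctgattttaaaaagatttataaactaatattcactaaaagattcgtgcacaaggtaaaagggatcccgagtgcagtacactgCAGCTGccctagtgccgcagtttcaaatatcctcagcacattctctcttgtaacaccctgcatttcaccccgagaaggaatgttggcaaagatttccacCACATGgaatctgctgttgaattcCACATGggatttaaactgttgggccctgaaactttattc
Fmod, chr1:134037004-134037253, plus strand: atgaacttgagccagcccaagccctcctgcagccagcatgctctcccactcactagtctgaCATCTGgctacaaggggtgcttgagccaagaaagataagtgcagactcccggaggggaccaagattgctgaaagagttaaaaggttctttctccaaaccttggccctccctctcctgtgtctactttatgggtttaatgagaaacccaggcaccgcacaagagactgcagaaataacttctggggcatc
Windows of 8 of the 10 genes were in the table of promoters used, and those of Dcn and Lum were not analysed here. The E-box form that Snail1 binds best, CAGGTG, read on both strands, was in 0 of these 8 windows and in 17.2% of 32851 windows of the same length over 27025 genes. CANNTG, which contains CAGGTG and reads the same on both strands, was in 4 of the 8 and in 66.2% of all windows. It stood 97 bases before the start of Aspn, 162, 63 and 39 before that of Ogn, 189 before that of Fmod and 102 before that of Bgn. The SMAD element CAGAC, on either strand, was in 2 of the 8, Fmod and Prelp, and in 42.2% of all windows. These matches are letters only and say nothing of binding. The share of G and C ran from 30% (Aspn) to 64.4% (Bgn) in the 8 windows, with 42% at most for the chromosome 13 genes. Its median over all windows was 52.4%. The part of base content in the motif counts was not tested, and 8 windows are few.

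In all, 4 of the 10 genes were at least 2-fold higher in Snail1-KO cells in both pairs of arrays and 2 were at least 2-fold lower. Among the 13308 kept genes these shares were 0.556% and 0.473%. The 10 include Ecm2, Lum and Kera, which were not kept, and Ecm2 is 1 of the 4. With no filter the shares over all genes were 0.356% and 0.298%. The 4 higher genes were those on chromosome 13, and the 2 lower were Dcn and Fmod. Each pair alone gave the same counts, against 1.07% of kept genes higher and 0.631% lower with TGF-b1, and 0.827% and 0.744% without it. The genes were chosen on this contrast, so these shares are given for scale only. Over all 10 genes the median difference was 0.33 with and 0.16 without TGF-b1, against -0.0024 and -0.00034 over the kept genes, with single members far to both sides of 0.

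**Figure D1:**
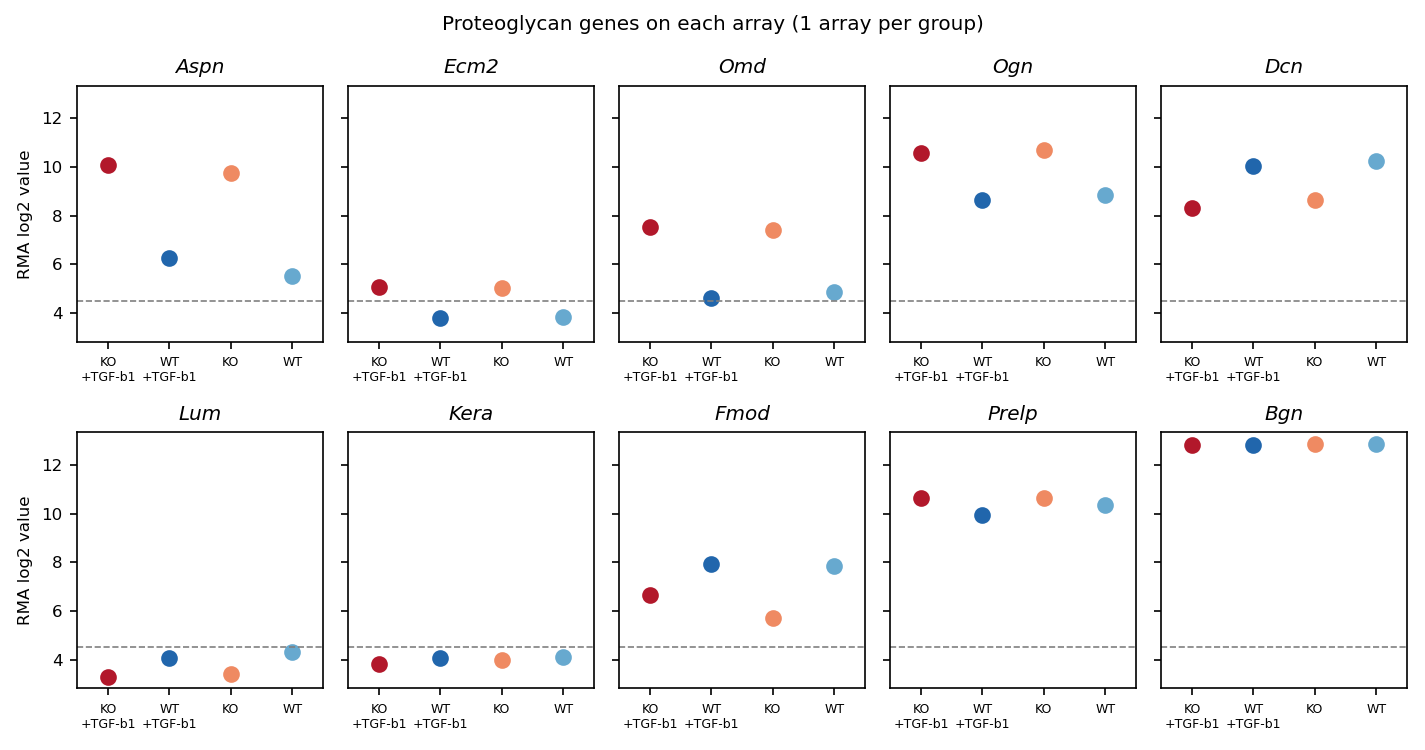
RMA log2 values of the 10 proteoglycan genes on each of the 4 arrays, in the order Snail1-KO with TGF-b1, Snail1-WT with TGF-b1, Snail1-KO, Snail1-WT. Each point is 1 array and the dashed line marks 4.51, the lowest mean kept; Aspn, Ecm2, Omd and Ogn sit higher in both Snail1-KO arrays, Dcn and Fmod lower, and Bgn is level.

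On chromosome 13 the group differed as a whole. Asporin (Aspn), a TGF-b1-binding member with a run of aspartates, measured 10.10 with and 9.78 without TGF-b1 in Snail1-KO cells, against 6.26 and 5.54 in Snail1-WT cells. Both Snail1-KO arrays lay well above both Snail1-WT arrays, by 14.3-fold with and 18.8-fold without TGF-b1, and the noise SD at this level was 0.11 on the log2 scale. It ranked first of the kept genes in each pair.

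Osteomodulin (Omd), a keratan sulfate proteoglycan of mineralised matrix, measured 7.52 with and 7.42 without TGF-b1 in Snail1-KO cells, against 4.64 and 4.85 in Snail1-WT cells. The Snail1-WT values stood just above 4.51, so the sizes of its differences, 7.38-fold with and 5.92-fold without TGF-b1, are uncertain. Osteoglycin (Ogn), also called mimecan, measured 10.57 with and 10.71 without TGF-b1 in Snail1-KO cells, against 8.65 and 8.84 in Snail1-WT cells. It was thus well above the filter on all 4 arrays and still 3.79-fold higher with and 3.65-fold higher without TGF-b1, with a noise SD of 0.08. By the smaller of its 2 differences it ranked 10th of the kept genes and Omd 4th.

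Ecm2, which encodes a matrix protein with leucine-rich repeats related to those of decorin, measured 5.08 with and 5.02 without TGF-b1 in Snail1-KO cells, against 3.79 and 3.86 in Snail1-WT cells. Both Snail1-WT values lay below 4.51 and its mean of 4.44 failed the filter, so the direction is shared with its neighbours but the size, 1.29 and 1.16 with a noise SD of 0.23, is uncertain. Over the 4 genes the median difference was 2.40 with and 2.22 without TGF-b1, and the smallest was that of Ecm2.

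On chromosome 10 decorin (Dcn), which carries a chondroitin or dermatan sulfate chain, coats collagen fibrils and binds TGF-b, was lower without Snail1. It measured 8.33 with and 8.65 without TGF-b1 in Snail1-KO cells, against 10.04 and 10.24 in Snail1-WT cells. The difference was -1.71 with and -1.59 without TGF-b1, with a noise SD of 0.08, and both Snail1-KO arrays lay below both Snail1-WT arrays. Among the kept genes it was the 14th lowest difference with and the 25th lowest without TGF-b1.

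Lumican (Lum), a keratan sulfate proteoglycan of cornea and skin, measured 3.30 with and 3.42 without TGF-b1 in Snail1-KO cells, against 4.07 and 4.33 in Snail1-WT cells. Keratocan (Kera), its corneal relative, measured 3.82 and 3.98 in Snail1-KO cells, against 4.06 and 4.10 in Snail1-WT cells. All 8 of these values lay below 4.51, which is a cut by rank and no limit of detection. Whether either gene was detected was not tested, and the sizes of their differences are uncertain. Their differences had the sign of that of Dcn, at -0.77 and -0.91 for Lum and at -0.24 and -0.13 for Kera, with noise SDs of 0.25 and 0.25. The median of the 3 genes is the value of Lum and so has no use as a summary here.

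The chromosome 1 pair was split. Fibromodulin (Fmod), a keratan sulfate proteoglycan that regulates collagen cross-linking and binds TGF-b, measured 6.65 with and 5.69 without TGF-b1 in Snail1-KO cells, against 7.94 and 7.85 in Snail1-WT cells. It was lower in both pairs, by -1.30 with and -2.16 without TGF-b1 (noise SD 0.15), which made it the 35th and the 4th lowest difference of the kept genes. Prelp, which encodes an arginine- and proline-rich protein linking basement membranes to collagen, measured 10.63 with and 10.64 without TGF-b1 in Snail1-KO cells, against 9.96 and 10.33 in Snail1-WT cells. It was higher by 0.67 with and 0.31 without TGF-b1, short of 2-fold, with a noise SD of 0.08.

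Biglycan (Bgn), the closest relative of decorin, measured 12.80 with and 12.86 without TGF-b1 in Snail1-KO cells, against 12.81 and 12.85 in Snail1-WT cells. The differences were -0.0050 and 0.011 with a noise SD of 0.08. These values lie near the top of the scale, where the highest value on any array was 13.3, and whether the probes were saturated was not tested. A dimmer probe set of Bgn measured 11.17 and 11.18 in Snail1-KO cells, against 11.00 and 11.13 in Snail1-WT cells, and differed by 0.17 and 0.052. Decorin and biglycan thus went apart on these arrays, with Dcn lower in both pairs and Bgn within 0.2 of equality on both of its probe sets. By its identifier the dimmer Bgn probe set stood among those of minus-strand genes (0 of 20 on the plus strand), while Bgn is a plus-strand gene. The sources used here do not state what that probe set detects.

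**Figure D2:**
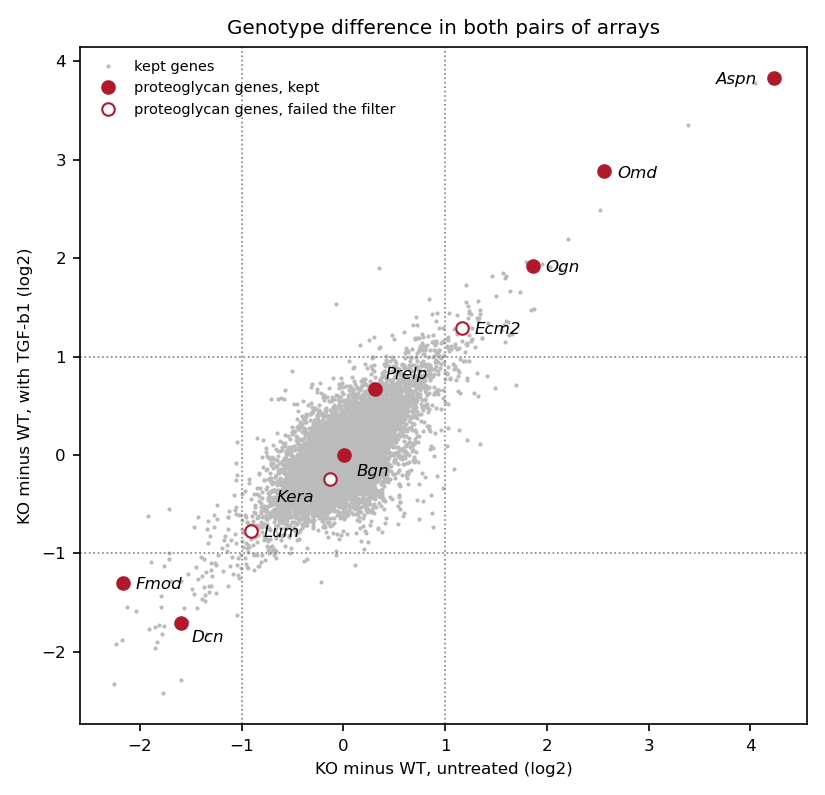
Difference Snail1-KO minus Snail1-WT (log2) without TGF-b1 on the horizontal axis and with TGF-b1 on the vertical axis, for 13308 kept genes (grey points), kept proteoglycan genes (filled) and those that failed the filter (open). Dotted lines mark 2-fold; Aspn, Omd, Ogn and Ecm2 lie in the upper right corner, Dcn and Fmod in the lower left.

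The kept genes next to each group all differed by less than 2-fold between genotypes. Around the chromosome 13 group, the 5 nearest kept genes on each side differed by -0.30 to 0.75 with and -0.46 to 0.61 without TGF-b1. Of these 10 genes 0 reached 2-fold in either pair. That count is near the background of 1.7% of kept genes with and 1.57% without TGF-b1. The span of the centromere protein gene Cenpp, on the minus strand, covers all 4 proteoglycan genes, which lie on the plus strand. Cenpp measured 5.83 with and 6.33 without TGF-b1 in Snail1-KO cells, against 5.52 and 5.88 in Snail1-WT cells, and so differed by 0.31 and 0.46 where Aspn differed by 3.83 and 4.23. Beyond Ogn, the nucleolar protein gene Nol8 differed by -0.30 and -0.30 and Iars, an isoleucyl-tRNA synthetase gene, by 0.047 and 0.053. The largest difference among the neighbours was that of the F-box gene Fbxw17, at 0.75 and 0.61 with a noise SD of 0.17.

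Around the chromosome 10 group the 10 neighbours differed by -0.67 to 0.53 with and -0.46 to 0.57 without TGF-b1. The antiproliferative gene Btg1, the nearest kept gene before Dcn, was higher by 0.53 and 0.36, and the calcium pump gene Atp2b1, the nearest after Kera, by 0.43 and 0.45. Nudt4, a nucleotide hydrolase gene, was lower by -0.67 and -0.44, and the MAP kinase phosphatase gene Dusp6 by -0.40 and -0.46, so the neighbours lay to both sides of 0. Around Prelp and Fmod the range was -0.22 to 0.50 with and -0.31 to 0.41 without TGF-b1. Opticin (Optc), another family member beside Prelp, was higher by 0.37 and 0.41, with a noise SD of 0.19. None of the 20 neighbours of these 2 groups reached 2-fold in either pair, again near that background. Whether the position of a gene within its group bears on its difference was not tested.

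**Figure D3:**
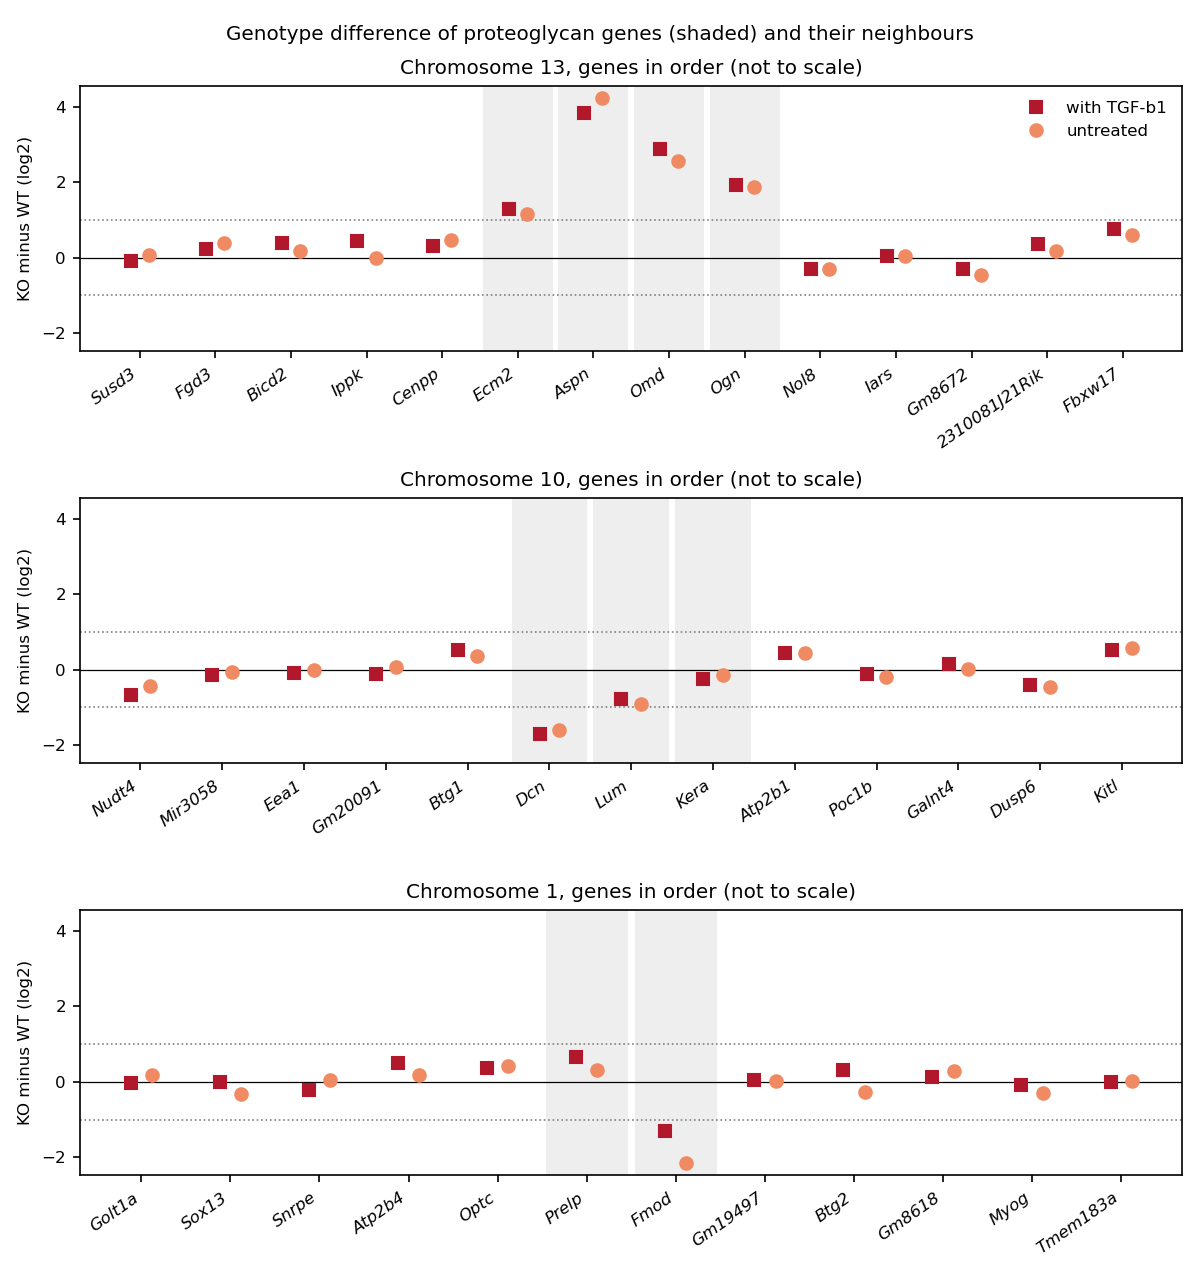
Difference Snail1-KO minus Snail1-WT (log2) for the proteoglycan genes (shaded) and the 5 nearest kept genes on each side, in gene order on chromosomes 13, 10 and 1 and not to scale. Squares are arrays with TGF-b1 and circles arrays without it; dotted lines mark 2-fold, which Ecm2, Aspn, Omd, Ogn, Dcn and Fmod passed and no neighbour did.

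After 2 h of TGF-b1, Fmod and Aspn were the members furthest from their untreated values. For Fmod TGF-b1 minus untreated was 0.95 in Snail1-KO cells, the 153rd highest of the kept genes, and 0.089 in Snail1-WT cells. Aspn was higher by 0.32 in Snail1-KO cells and by 0.72 in Snail1-WT cells, the 214th highest there. No member reached 2-fold in either genotype, and with 1.31% of kept genes past it in Snail1-KO cells and 0.984% in Snail1-WT cells a count of 0 of 10 is near the background. The other 8 genes lay between -0.32 and 0.10 in Snail1-KO cells and between -0.37 and -0.036 in Snail1-WT cells.

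A treatment effect common to both genotypes was tested with limma on all 4 arrays, in a fit with 1 residual degree of freedom per gene that borrows its spread from other genes. At an adjusted p under 0.05 it called 17.9% of the kept genes, 8.77% higher and 9.08% lower. Of the 7 proteoglycan genes tested, 2 passed with a higher and 3 with a lower fitted value after TGF-b1. The members were picked with earlier results of these arrays known, so this count is given as a description. The fit takes the response as equal in both genotypes, while for Fmod and Prelp nearly all of it came from 1 genotype, as given below. Aspn rose by 0.52 (SE 0.083, limma adjusted p = 1.4e-08) and Fmod by 0.52 (SE 0.10, limma adjusted p = 9.3e-06). Dcn fell by 0.26 (SE 0.064, limma adjusted p = 0.00066), Prelp by 0.19 (SE 0.055, limma adjusted p = 0.0041) and Ogn by 0.17 (SE 0.060, limma adjusted p = 0.036). Omd, at -0.058, and Bgn, at -0.043, did not pass (limma adjusted p = 0.84 and 0.60).

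Only Aspn passed in each of 8 versions of that fit, and its largest adjusted p was 0.049, without a trend of the spread on level. In that version Fmod, Dcn, Prelp and Ogn had limma adjusted p of 0.15, 0.17, 0.37 and 0.35. The fit that gave the values above had infinite prior degrees of freedom, so they gave no weight to how far the genotypes disagreed for 1 gene, whereas without the trend the prior degrees of freedom were 6.27 and that disagreement counted. For Fmod nearly all of the shift came from the Snail1-KO pair. For Prelp nearly all came from the Snail1-WT pair, at -0.37 against -0.016 in Snail1-KO cells.

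**Figure D4:**
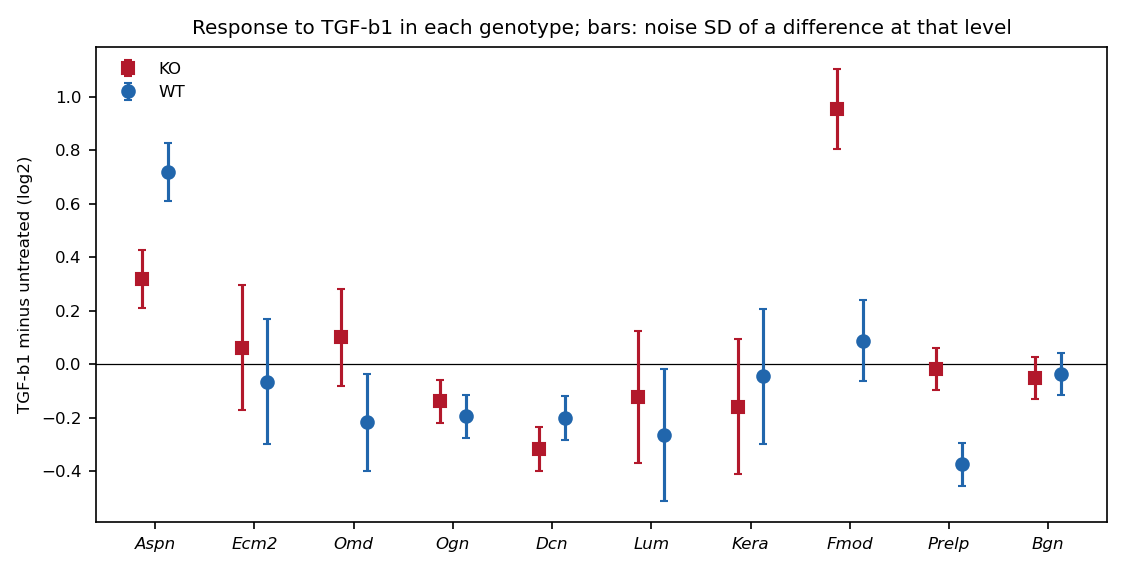
Response to TGF-b1 (treated minus untreated, log2) of each proteoglycan gene in Snail1-KO cells (squares) and Snail1-WT cells (circles). Each point is a difference between 2 arrays and the bars are the noise SD at that level; Fmod in Snail1-KO cells, at 0.95, and Aspn in Snail1-WT cells, at 0.72, stand highest.

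The Snail1-KO response minus the Snail1-WT response was 0.87 for Fmod on its brighter probe set, the 30th highest of the kept genes, of which 0.338% reached 2-fold in either direction. With the mean of both Fmod probe sets it was 0.40. The same difference was 0.36 for Prelp, whose value differed after TGF-b1 by -0.016 in Snail1-KO cells and -0.37 in Snail1-WT cells. For Aspn it was -0.40. Set against the noise SD of such a difference of differences, these were 4.06, 3.19 and -2.63 times it, and the other members lay within 1.24 times. The noise SD was made from this same quantity over all genes and is a yardstick and not a test.

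The Fmod response in Snail1-KO cells was not shared by its second probe set. The brighter Fmod probe set measured 6.65 with and 5.69 without TGF-b1 in Snail1-KO cells. The dimmer one measured 5.56 and 5.44 there, against 6.92 and 6.73 in Snail1-WT cells. Its responses were therefore 0.12 in Snail1-KO cells and 0.19 in Snail1-WT cells, and the difference of the responses was -0.073. The genotype difference was shared, at -1.36 with and -1.29 without TGF-b1 on the dimmer probe set.

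By its identifier the brighter Fmod probe set stood among probe sets of plus-strand genes (19 of the 20 nearest with a known strand), the strand of Fmod itself, and the dimmer one among those of minus-strand genes (1 of 20 on the plus strand). Prelp, a minus-strand gene, showed the same arrangement, with 2 of 20 around its brighter and 19 of 20 around its dimmer probe set on the plus strand. So did Bgn, a plus-strand gene, with 20 of 20 and 0 of 20. The sources used here do not state what the dimmer probe sets detect, and the comparison of both was made after their values were seen. For Prelp the dimmer probe set differed between genotypes by 0.24 with and 0.074 without TGF-b1. Its responses to TGF-b1 were 0.17 in Snail1-KO cells and -0.0044 in Snail1-WT cells, so it did not share the lower value of the brighter one after TGF-b1.

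**Figure D5:**
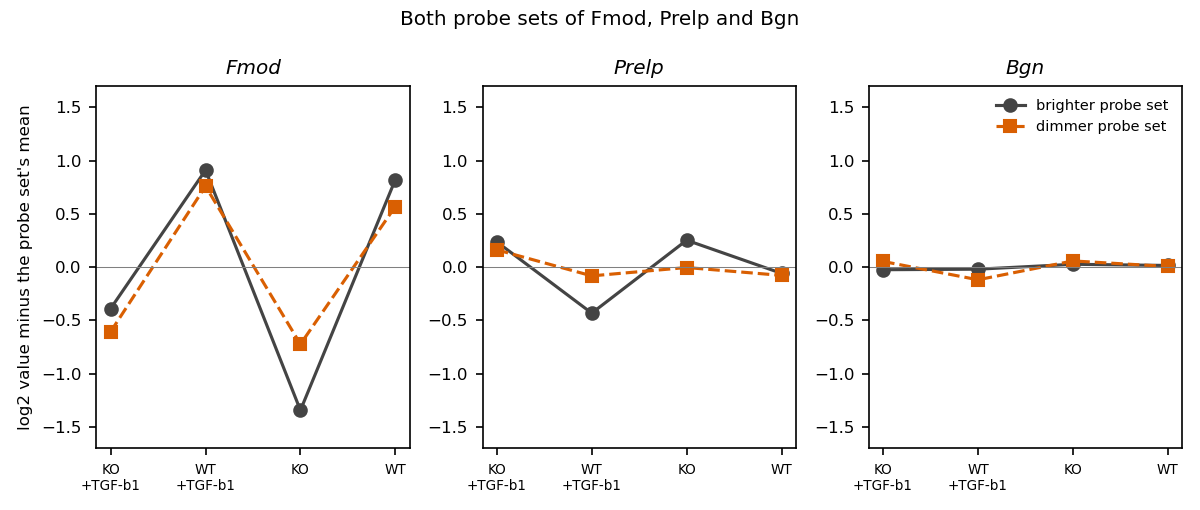
Log2 value minus the mean of the probe set over the 4 arrays for the brighter (circles) and the dimmer (squares) probe set of Fmod, Prelp and Bgn; lines join the arrays of 1 probe set. Both Fmod probe sets are lower in Snail1-KO cells, and the brighter one alone separates the Snail1-KO arrays with and without TGF-b1, at 6.65 and 5.69.

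The kept genes whose profile over the 4 arrays was most like that of Aspn, by Euclidean distance after centring each gene on its mean, were Gm5886 (distance 0.51), the palmitoyltransferase gene Zdhhc2 (0.82), Omd (1.47), the chemokine gene Ccl5 (1.69) and the lipocalin gene Apod (2.06). Omd was thus the third nearest of all kept genes. Gm5886 measured 6.62 with and 6.72 without TGF-b1 in Snail1-KO cells, against 2.84 and 2.67 in Snail1-WT cells, and Zdhhc2 measured 6.42 and 6.36 in Snail1-KO cells, against 3.07 and 2.97 in Snail1-WT cells. Both genes lay far under 4.51 in Snail1-WT cells and passed the filter through the Snail1-KO arrays, so their distances and the rank of Omd behind them are uncertain. Nearest to Dcn were the corneodesmosin gene Cdsn (0.18), the WNT antagonist gene Sfrp1 (0.18), the glutamate transporter gene Slc1a6 (0.19), Dcun1d5 (0.23) and Cfap300 (0.23). Sfrp1 measured 9.65 with and 9.78 without TGF-b1 in Snail1-KO cells, against 11.33 and 11.36 in Snail1-WT cells. With 4 arrays such a likeness rests almost wholly on the genotype difference.

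Of 6 other small leucine-rich proteoglycan genes measured, 3 were kept and 3 lay below 4.51 on all arrays. Their median genotype difference was 0.18 with and 0.24 without TGF-b1. Of the 6 genes 0 reached 2-fold between genotypes or after TGF-b1, near the background of 0.984% to 1.7% of kept genes. Podocan (Podn) was higher by 0.45 and 0.36 and its relative Podnl1 by 0.25 and 0.56. Epyc, which follows Kera on chromosome 10, measured 3.44 to 3.63 on the 4 arrays, below 4.51 throughout.

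The enzymes that build the sugar chains of these proteins were described next. Of 20 measured genes for chondroitin and dermatan sulfate synthesis, 0 were 2-fold apart between genotypes in either pair, near the background of 1.7% of kept genes with and 1.57% without TGF-b1, and the median was -0.028 with and -0.061 without TGF-b1. Xylt1, which starts the chains, was higher in Snail1-KO cells by 0.69 and 0.32, while Chsy1, which elongates them, was lower by -0.30 and -0.35. After TGF-b1 the sulfotransferase genes Chst11 and Ust were higher by 0.78 and 0.53 in Snail1-KO cells, and by 1.53 and 1.07 in Snail1-WT cells. In Snail1-WT cells they were the 2 of the 20 genes past 2-fold, against 0.984% of kept genes. Chsy1 was higher after TGF-b1 by 0.57 in Snail1-KO cells and 0.52 in Snail1-WT cells.

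Of 7 genes for keratan sulfate synthesis 0 were 2-fold apart between genotypes, again near that background. The sulfotransferase gene Chst2 differed by -0.51 with and -0.71 without TGF-b1, and Chst1 by 0.44 and 0.45. Chst2 was higher after TGF-b1 by 1.05 in Snail1-KO cells and 0.85 in Snail1-WT cells.

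Among 24 genes of other proteoglycans, of which 16 were kept, 1 was 2-fold apart between genotypes, and only with TGF-b1. Over the kept genes the share was 1.7% with and 1.57% without TGF-b1. The 1 gene was the lubricin gene Prg4, higher by 1.41 with and 0.71 without TGF-b1. It measured 6.05 and 4.71 in Snail1-KO cells, against 4.64 and 3.99 in Snail1-WT cells, the last of these below 4.51. The cell surface glypican genes Gpc1 and Gpc6 went opposite ways, at 0.81 and 0.78 for Gpc1 and -0.82 and -0.88 for Gpc6. The list's median was -0.0067 with and 0.019 without TGF-b1.

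The 14 collagen genes listed code for fibrillar, fibril-associated and type VI collagens, to which proteins of this family bind. Of these genes, 10 had a difference above 0 with and 9 without TGF-b1, against 49.6% and 50.0% of the kept genes. The medians were 0.12 and 0.15, and 1 gene passed 2-fold in 1 pair, that with TGF-b1, as did 1.7% of kept genes there. The collagen gene past 2-fold was Col11a1, a nucleator of thin fibrils, at 1.15 with and 0.98 without TGF-b1. Among the next by size, Col3a1 was higher by 0.89 and 0.71, Col6a2 by 0.77 and 0.61 and Col6a1 by 0.58 and 0.40.

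Among 17 known binding partners and processing enzymes the median genotype difference was 0.074 with and -0.11 without TGF-b1. The matricellular gene Ccn4, whose product binds decorin and biglycan, differed by -0.25 with and -1.05 without TGF-b1. Tlr2 and Tlr4, receptors for soluble biglycan, were higher by 0.52 and 0.71, and by 0.58 and 0.64. Bmp4, whose signalling biglycan modulates, was lower by -0.57 and -0.81. After TGF-b1, Ccn4 was higher by 2.14 in Snail1-KO cells and 1.35 in Snail1-WT cells, Tgfb3 by 1.79 and 0.999, and Bmp4 was lower, at -1.77 and -2.01.

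The cells were checked against markers, since tendon, cartilage and bone cells also make these proteoglycans. Of 8 measured stromal markers 7 were kept, among them Pdgfrb at 10.66 to 11.59 and Itgb1 at 10.22 to 10.32, but Nt5e (CD73) at 4.23 to 4.62 was not. Their median genotype difference was -0.21 with and -0.28 without TGF-b1, with 2 of 8 above 0 in each pair. Pdgfra differed by -0.50 and -0.37 (noise SD 0.08), and Thy1, at 5.19 to 5.67, by -0.48 and -0.24 (noise SD 0.21). Of 6 blood and macrophage markers 3 were kept, with a median of -0.12 with and 0.19 without TGF-b1. Ptprc, Itgam and Adgre1 lay between 3.15 and 3.78 on all arrays, while Cd68 measured 6.05 to 6.23. Cd14, at 5.53 to 6.59, was higher in Snail1-KO cells by 0.59 and 0.42, and Csf1r differed by -0.55 and -0.12. Of 4 endothelial markers 3 were kept, with a median of 0.21 with and -0.18 without TGF-b1. Of 4 epithelial markers 3 were kept too, with a median of -0.11 and 0.060. Krt8, at 5.28 to 5.48, was the brightest of both lists. Of 5 tendon markers 3 were kept, and the list's median genotype difference was 0.32 with and 0.12 without TGF-b1. The tendon factor gene Scx measured 9.20 with and 7.44 without TGF-b1 in Snail1-KO cells, against 8.34 and 6.70 in Snail1-WT cells, a difference of 0.87 and 0.73. Mkx, another tendon factor gene, differed by -0.16 and -0.089, Tnxb by 0.56 and 0.12, and Thbs4, which failed the filter, by -0.47 and -0.39. The mature tendon gene Tnmd, below 4.51 on all arrays, gave the list's median with TGF-b1.

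Of 5 cartilage markers 2 were kept (Sox9 and Col2a1), and of 5 measured bone markers 1 was kept, Alpl. Sox9 measured 11.29 with and 9.65 without TGF-b1 in Snail1-KO cells, against 10.90 and 10.01 in Snail1-WT cells, a difference of 0.39 and -0.36. Col2a1 measured 5.39 to 5.57. Of those that failed the filter, Acan measured 3.98 to 4.20 and the bone matrix gene Ibsp 3.61 to 3.96. Alpl, the tissue-nonspecific alkaline phosphatase, differed by -1.82 with and -1.78 without TGF-b1, opposite to Omd. The bone list as a whole did not follow Alpl. Its median genotype difference was -0.20 with and 0.18 without TGF-b1, with 1 and 3 of the 5 genes above 0. Among 5 fat markers, of which 3 were kept, the lipoprotein lipase gene Lpl differed by -0.77 and -0.96, Pparg by 0.24 and 0.013 and Plin1 by 0.0089 and -0.53. Of those that failed the filter, Fabp4 differed by 0.24 and 0.57 and Adipoq by -0.35 and -0.21. The part of these marker differences in those of the proteoglycan genes was not tested. In a culture measured as a whole, fewer cells making a gene's RNA and less of that RNA per cell cannot be told apart.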

How the data were processed

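The authors deposited RMA log2 values for 41345 probe sets on 4 arrays, made, per the submitters' processing notes, by RMA and R (version 3.1.1). The method subtracts background, gives all arrays one distribution and summarises probes, so a shift shared by most genes would be removed. The sources used here state neither build nor probe annotation. Per the labels' protocols, total RNA was labelled with the WT PLUS kit. Arrays have no depth; their number limits the precision.

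Groups came from sample titles and gene names from the platform annotation; 23328 of 23521 single-symbol probe sets matched RefSeq's GRCm38.p6 gene table by Entrez identifier. Each gene took its probe set with the highest mean. Differences of log2 values were described without a test. The treatment term came from limma 3.58.1 in R 4.3.3 (genotype plus treatment, eBayes with trend, Benjamini-Hochberg over 13308 genes, threshold 0.05). The fit was run on simulated data whose noise depended on level alone, with the same treatment shift in both genotypes. That run could not show how the fit fares where the genotypes disagree. The genotype term was not used. Other steps used Python 3.11.15 (matplotlib 3.10.9, pandas 2.3.3, numpy 2.4.6). Named genes were all members, Snai1, the 5 nearest kept genes per side, up to 4 per list by mean genotype difference, the 5 nearest profiles to Aspn and to Dcn, and, added after their values were seen, list members past 2-fold and markers at the ends of their lists. Members and lists were chosen with earlier results of these data known. Alternatives were a 1.5-fold threshold, median centring, cyclic loess, the mean of probe sets, no filter, a 40% filter and other eBayes settings.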

Additional observations from a re-analysis of the deposited data

Results flagged for a closer look

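For 2 genes the response to TGF-b1 had opposite signs in the genotypes, each on 1 pair of arrays, and the difference was not tested. Omd was higher after TGF-b1 by 0.10 in Snail1-KO cells and lower in Snail1-WT cells, at -0.22, so that the responses differed by 0.32. Ecm2 was at 0.063 in Snail1-KO cells and -0.064 in Snail1-WT cells, a difference of 0.13. The noise SD of a single response was 0.18 for Omd and 0.23 for Ecm2.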

How the results depend on the processing

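Median centring and cyclic loess moved none of the 40 differences of the 10 genes by more than their noise SD. The mean of probe sets moved 7, all of Fmod, Prelp and Bgn: the response of Fmod became 0.54 in Snail1-KO cells and 0.14 in Snail1-WT cells, so that their difference, 0.40, was about the size of that of Aspn, -0.40, and its untreated genotype difference became -1.73. With it the median of Fmod and Prelp was -0.44 with and -0.77 without TGF-b1, in place of -0.32 and -0.93, and Bgn differed by 0.083 with TGF-b1. At 1.5-fold, 1 gene was higher after TGF-b1 in each genotype, Fmod in Snail1-KO cells and Aspn in Snail1-WT cells, in place of 0. The share of all kept genes past 1.5-fold is not given here, so these counts have no background. The treatment term called 1 gene higher and 1 lower with median centring, and 1 higher and 0 lower without the trend, in place of 2 and 3. Over the 13308 kept genes the calls also became fewer, at 1446 with median centring and 898 without the trend, in place of 2376. The limma adjusted p of Fmod was 0.066 with median centring, and that of Prelp 0.72 with the mean of probe sets. The cause of these changes was not tested. With no filter 0.356% of genes were higher and 0.298% lower in both genotype pairs, and 0.888% had responses 2-fold apart, against 0.0451% with a 40% filter. Leaving out an array was not run, since 1 array per group leaves no difference or no residual degree of freedom. No paired analysis was possible because the groups share a single replicate number, given in accession order; the limma fit does compare treated with untreated arrays within each genotype.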
